A study of Rattus norvegicus with 6 samples.

Results

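The 9 myelin genes Mbp, Mobp, Mog, Mag, Cnp, Mal, Ugt8, Opalin and Cldn11 encode structural proteins, surface proteins and enzymes of the myelin sheath. These genes were followed through every deposited barcode of a droplet RNA-sequencing experiment on rat cerebral hemisphere. They were taken by symbol, are 9 of the 15227 genes in the files, and were all detected. The study compared a control group (NC) with rats that inhaled carbon monoxide (CO), first at 1000 ppm for 40 min and then at 3000 ppm for 20 min, with 3 libraries in each group. Poisoned rats entered the study when consciousness was impaired and carboxyhaemoglobin was high, and in both groups the tissue was dispersed with trypsin and DNase I, strained and washed. The labels used here give no strain, sex or age. Cells were loaded on the 10x Genomics system, which tags each transcript with a droplet barcode and a unique molecular identifier (UMI), so that the deposited values are counts of UMIs per gene and barcode.

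In the brain, myelin is made by oligodendrocytes, which arise from dividing precursors and wrap axons with layers of their own membrane. The genes studied serve different steps: Mbp and Mobp encode proteins that hold the cytoplasmic faces of compact myelin together, Ugt8 makes the galactolipids of the membrane, Mal is a raft protein of membrane sorting, Cldn11 forms the tight junctions of the sheath, Mag and Mog are immunoglobulin-type proteins of its inner and outer surfaces, Cnp is an enzyme of its cytoplasmic channels, and Opalin is a membrane protein of oligodendrocytes. Mbp RNA is known to be carried out of the cell body into the processes and translated in the sheath, and the same gene has an upstream start that gives the golli transcripts, known from lymphoid cells and neurons.

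The promoters show where transcription of these genes begins and how their sequences differ. RefSeq promoters of the GRCr8 build, from 250 bases before to 50 bases after the start, were found by symbol for 8 of the 9 genes, 2 of them for Mbp. Motifs of SOX10 and MYRF, transcription factors that oligodendrocytes use for myelin genes, were searched on both strands as ACAAAG (reverse complement CTTTGT) and CTGGCAC (reverse complement GTGCCAG). The SOX-type letters were in a promoter of 5 of the 8 genes (Cnp, Mag, Mobp, Opalin and the downstream start of Mbp) and in 18.8% of 33469 RefSeq promoters of that length. The MYRF-type letters were in 4 of the 8 (Cnp, Mag, Mal and Opalin) and in 4.75% of those promoters, and no match of one motif overlapped a match of the other. A match of letters is a description and not a bound site. Shown 5′ to 3′, with matches in capitals, are 5 promoters of genes whose patterns separate below: Cnp, which was present in cells of the precursor gate, Cldn11, which was present in fibroblast-gated cells, and Mag, Mobp and Opalin, which were low in both.
Cnp (chr10:86011254-86011553, plus strand): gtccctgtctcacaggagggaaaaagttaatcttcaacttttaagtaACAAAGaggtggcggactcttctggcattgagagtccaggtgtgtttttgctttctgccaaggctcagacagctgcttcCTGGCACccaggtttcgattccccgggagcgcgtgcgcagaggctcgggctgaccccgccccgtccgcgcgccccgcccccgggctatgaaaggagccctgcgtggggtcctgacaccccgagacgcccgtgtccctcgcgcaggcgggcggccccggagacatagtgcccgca
Mag (chr1:95290995-95291294, minus strand): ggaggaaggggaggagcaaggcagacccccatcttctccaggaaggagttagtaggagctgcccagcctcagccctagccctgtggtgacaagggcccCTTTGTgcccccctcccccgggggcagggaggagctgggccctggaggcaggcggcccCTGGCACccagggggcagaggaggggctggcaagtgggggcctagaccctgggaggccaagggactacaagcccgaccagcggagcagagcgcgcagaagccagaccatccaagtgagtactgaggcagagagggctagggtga
Opalin (chr1:249858141-249858440, minus strand): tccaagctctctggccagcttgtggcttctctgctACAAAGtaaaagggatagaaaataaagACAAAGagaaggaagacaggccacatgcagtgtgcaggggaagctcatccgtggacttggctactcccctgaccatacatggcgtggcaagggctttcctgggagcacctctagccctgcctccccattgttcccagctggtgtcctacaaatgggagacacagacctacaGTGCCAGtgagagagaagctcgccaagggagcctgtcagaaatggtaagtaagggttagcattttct
Mobp (chr8:128746982-128747281, plus strand): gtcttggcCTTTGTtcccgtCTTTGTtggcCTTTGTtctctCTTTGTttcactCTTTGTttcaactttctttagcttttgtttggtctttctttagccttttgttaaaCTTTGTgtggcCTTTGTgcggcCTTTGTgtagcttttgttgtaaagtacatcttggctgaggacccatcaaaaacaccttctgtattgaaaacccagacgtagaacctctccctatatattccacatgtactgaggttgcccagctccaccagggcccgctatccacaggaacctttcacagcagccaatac
Cldn11 (chr2:114149490-114149789, minus strand): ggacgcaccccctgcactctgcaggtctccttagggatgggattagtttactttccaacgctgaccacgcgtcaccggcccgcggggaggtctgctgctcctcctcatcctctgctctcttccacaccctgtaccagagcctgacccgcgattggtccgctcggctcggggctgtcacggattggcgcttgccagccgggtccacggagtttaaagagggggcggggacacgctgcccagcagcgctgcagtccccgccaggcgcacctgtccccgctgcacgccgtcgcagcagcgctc
The Mobp promoter held 8 SOX-type matches, all as CTTTGT in its upstream part, and the Cldn11 promoter held neither motif.

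The 6 libraries held 42293 barcodes (22608 NC and 19685 CO) and from 39494470 to 47322264 UMIs each, and 1 barcode was shared over 15 pairs of libraries. Within a group the libraries differed about as much as parts of 1 pool of cells would: the variance between library means was on average 1.01 times that expected from the spread between cells in NC and 1.12 times in CO. Each group was therefore counted as 1 sample, although the series text speaks of 3 rats per group. No p-value is given, the library values show technical spread, and all intervals are 95% exact intervals that cover counting error only. Levels are UMIs of a gene per 1000000 UMIs of the class (CPM), scaled between groups with TMM factors and not divided by transcript length, so that a level is compared between classes or groups for 1 gene and not between genes.

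Over all barcodes of a library, the 9 genes made up 0.991%, 0.953% and 0.995% of UMIs in NC and 0.430%, 0.439% and 0.408% in CO. All CO libraries lay below all NC libraries. Cells were classed by markers that include none of the 9 genes. Of 20306 NC cells with at least 500 UMIs, 3231 met the oligodendrocyte gate (15.9%, interval 15.4 to 16.4), against 1329 of 17847 CO cells (7.45%, interval 7.07 to 7.84). The library shares were 16.2%, 15.6% and 15.9% in NC and 7.53%, 7.80% and 7.03% in CO. A lower share of cells cannot tell a loss of oligodendrocytes from a different yield of the dispersion or more of the other cells. Among the leading genes of the class by fold over other classes were Ugt8, Mobp, Mal and Ermn, a cytoskeletal protein of oligodendrocytes.

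Within oligodendrocyte-gated cells the 9 genes had similar levels in both groups. The gate's markers include Gjb1, Klk6 and Hapln2, whose patterns over the classes were like that of the 9, and Aspa, which was higher in CO. Cells low in such markers could miss the gate, and its part in these levels was not tested. Median depth was 9113 UMIs per cell in NC and 9735 in CO. None of the 9 was at least 1.5-fold lower in CO, where 7.73% of the 11180 genes tested were, and none was at least 1.5-fold higher, where 9.45% of all genes were. The median log2 ratio of CO over NC was -0.10, beside 0.00 over all genes. Of the compact-myelin proteins, Mbp stood at 5798, 5982 and 6208 CPM in the NC libraries and at 5222, 5549 and 5613 CPM in CO, a log2 ratio of -0.14 (-0.15 to -0.13). Each CO library was below each NC library for Mbp. Mobp, at 4087 CPM in NC and 4130 CPM in CO, had a log2 ratio of 0.02, and its libraries overlapped.

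The tight-junction gene Cldn11 had the lowest ratio of the 9 in these cells. It stood at 3632, 3561 and 3669 CPM in the NC libraries and at 2977, 3063 and 3182 CPM in the CO libraries, a log2 ratio of -0.24 (-0.25 to -0.22). The 3 CO values lay below the 3 NC values, as they did for Mbp, Cnp and Opalin, which makes 4 of 9 genes beside 18.1% of all genes tested. Cnp was at 5040 CPM in NC and 4694 CPM in CO, and Opalin at 984 and 959 CPM. The Opalin ratio of -0.04 turned to 0.0015 under Leiden clusters, 0.0060 with cells of 2 lineages kept and 0.070 in thinned cells. The enzyme Ugt8 (2955 and 2727 CPM) and the raft gene Mal (5815 and 5352 CPM) had ratios of -0.12 each, with overlapping libraries. The surface genes Mog (2628 and 2703 CPM) and Mag (2081 and 2100 CPM) had ratios of 0.04 and 0.01, also with overlapping libraries. The ratios of Mag and Mobp were on either side of 0 when single libraries were left out. The median over the 9 moved to -0.034 without CO replicate 02.

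Single oligodendrocyte-gated cells varied widely in each gene. In NC, Mbp had a median of 45 UMIs per cell (quartiles 20 and 82) and Opalin a median of 6 (quartiles 2 and 14), and in CO the medians were 44 and 7. Ugt8 had a median of 14 UMIs and an upper quartile of 33 in NC, and 13 and 30 in CO. A UMI of Mbp was found in 97.0% of NC and 97.8% of CO cells of this class, and of Opalin in 87.7% and 89.8%. With each cell thinned to 1000 UMIs these shares were 93.3% and 93.2% for Mbp and 52.6% and 54.3% for Opalin.

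Among the 36 pairs of the 9 genes, Mal and Opalin had the highest Pearson correlation over single cells on a log scale per 10000 UMIs, 0.31 in both groups, while Mal and Ugt8 were at -0.02 in NC and -0.09 in CO. The cells share their libraries and differ in depth, so these values describe the cells only. Cells without a UMI of Klk6, a protease that also served as a gate marker, numbered 613 of 3231 in NC and were shallower, with a median of 4378 UMIs against 9903. As CPM without TMM scaling, Mal was at 9330 in these cells against 5357 in the others and Opalin at 1517 against 914, while Ugt8 was at 1971 against 3054. In CO, with 240 of 1329 cells, the values were 7374 against 5154, 1314 against 925 and 2458 against 2775.

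**Figure D1:**
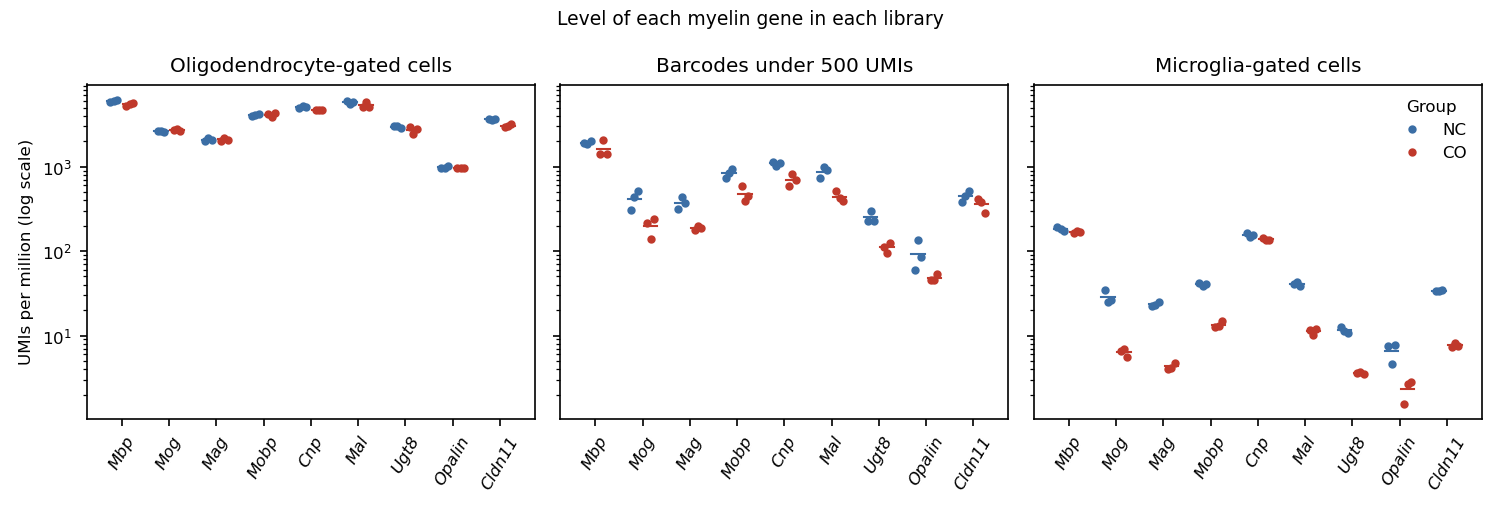
Level of each gene in CPM (log axis) in oligodendrocyte-gated cells, barcodes under 500 UMIs and microglia-gated cells; points are the 3 libraries of each group and bars the group's summed level. The groups lie close together in oligodendrocyte-gated cells, whereas in microglia-gated cells the CO points of 7 genes lie far below NC and those of Mbp and Cnp lie near NC.

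The oligodendrocyte-gated cells held most of the transcripts. Of all UMIs of the 9 genes, 86.0% in NC and 85.8% in CO were in this class. A further 10.5% and 8.15% were in cells that met the gates of 2 lineages and were set aside as possible doublets, and 0.422% and 0.519% were in barcodes under 500 UMIs. All other gated cells, apart from those of the precursor gate, held 2.56% in NC and 4.94% in CO (33875 of 1323157 and 26339 of 533103 UMIs). Most of it was in microglia-gated cells (1.57% and 3.28%), and cells of the precursor gate held 0.0098% and 0.037%. The genes differed in this respect. Gated cells outside the class, again without the precursor gate, held 4.54% of Mbp UMIs in NC and 11.7% in CO, and 4.07% and 9.91% of Cnp UMIs. The counts in these cells were close in the 2 groups, at 11228 and 12043 for Mbp and 8240 and 8329 for Cnp. The shares differed because all barcodes together held 247343 Mbp UMIs in NC and 103076 in CO, and 202700 and 84044 Cnp UMIs. The same cells held only 1.23% and 1.26% of Opalin UMIs and 0.792% and 0.854% of Ugt8 UMIs. Cells of the precursor gate held a further 0.0518% and 0.171% of Cnp UMIs and 0.00613% and 0.0648% of Ugt8 UMIs.

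**Figure D2:**
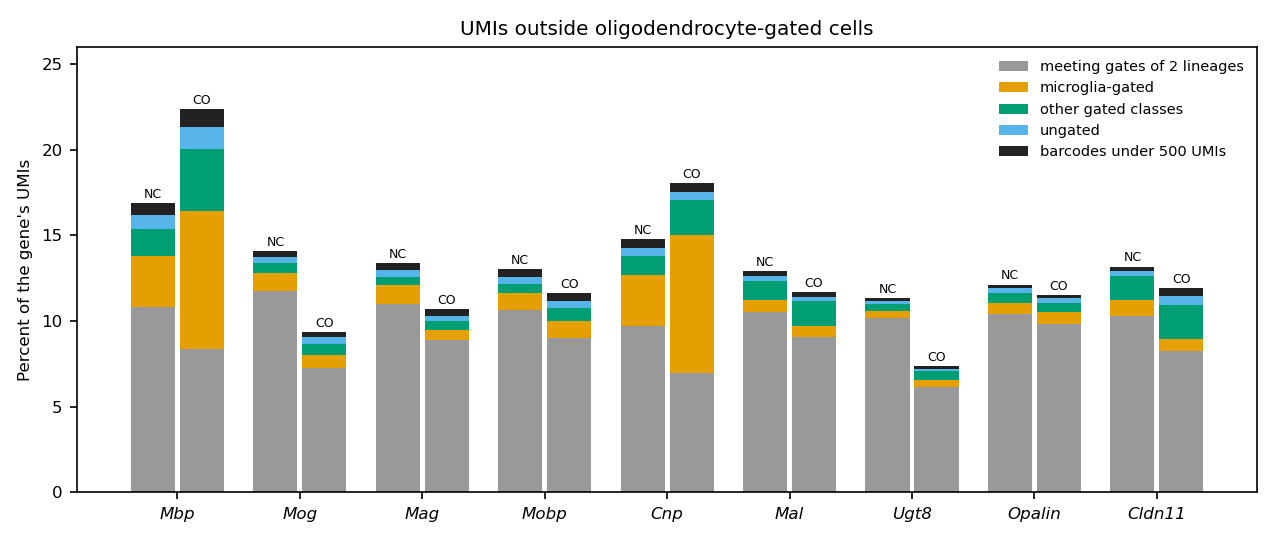
Percent of each gene's UMIs that lay outside oligodendrocyte-gated cells, by class, for NC and CO. Microglia-gated cells held 2.95% of Mbp UMIs in NC and 8.04% in CO (7292 of 247343 and 8286 of 103076). They held 6081 of 202700 and 6776 of 84044 Cnp UMIs, and these bars set the 2 genes apart from the other 7.

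Cells of the precursor gate carried Cnp and little else of the 9 genes. There were 34 such cells in NC and 32 in CO. None of the gate's markers was among the 10 leading genes of this class, so that it is named here by its gate only. Cnp was at 441, 420 and 502 CPM in the NC libraries and 245, 327 and 903 CPM in the CO libraries, which overlapped, and the group level was 8.91% of that in oligodendrocyte-gated cells in NC and 10.2% in CO. Cnp made up 80.8% of the UMIs of the 9 genes in these cells in NC and 72.7% in CO, against 15.2% and 15.1% in oligodendrocyte-gated cells. In CO 3 of the 32 cells held 56.1% of the 198 UMIs of the 9 genes, and the highest cell held 56, against a median of 3 per cell. Mbp was at 12.8 CPM in NC and 39.9 CPM in CO, 3 and 12 UMIs, and Mobp had no UMI in either group. Ugt8 had 7 UMIs in NC and 28 in CO, of which CO replicate 03 held most, with 259 CPM beside 16.9 and 11.7 in the other 2 libraries. Cnp and Ugt8 were the 2 genes of the 9 with at least 30 UMIs over both groups in this class.

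Microglia-gated cells, the class with the most cells in both groups, separated the genes. They numbered 8373 in NC (41.2% of cells) and 8953 in CO (50.2%), with median depths of 4654 and 5661 UMIs. In CO 7 of the 9 genes were at least 1.5-fold lower, where 11.7% of the 12127 genes tested were, and none was at least 1.5-fold higher, where 7.81% were. For all 9, every CO library lay below every NC library, which held for 24.5% of all genes. The median log2 ratio was -1.68, beside 0.00 over all genes. Under Leiden clusters in place of the gate it was -0.95, with 7 of 9 again at least 1.5-fold lower.

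The surface genes and the tight-junction gene differed most in these cells. Mag was at 22.5, 23.2 and 24.98 CPM in the NC libraries and 3.99, 4.15 and 4.74 CPM in CO, a log2 ratio of -2.46 (-2.68 to -2.24). Mog was at 34.7, 25 and 26.2 CPM in NC and 6.49, 6.87 and 5.62 CPM in CO, a log2 ratio of -2.18 (-2.36 to -1.99). Cldn11 was at 34.1, 33.5 and 34.6 CPM in NC and 7.27, 8.23 and 7.49 CPM in CO, a log2 ratio of -2.16 (-2.33 to -1.99). In each of these genes the gap between the groups was wider than the spread of the libraries. Mal (-1.86), Ugt8 (-1.68), Mobp (-1.60) and Opalin (-1.49) followed, from 40.7, 11.6, 40.7 and 6.56 CPM in NC to 11.2, 3.61, 13.5 and 2.33 CPM in CO.

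Over the whole class Mbp and Cnp differed less than 1.5-fold between the groups. Mbp was at 194, 185 and 174 CPM in the NC libraries and 163, 173 and 169 CPM in CO, a log2 ratio of -0.13 (-0.18 to -0.09). Cnp was at 162, 145 and 154 CPM in NC and 145, 134 and 134 CPM in CO, a log2 ratio of -0.16 (-0.21 to -0.11). Over the alternative settings the ratio went from -0.29 to 0.13 for Mbp and from -0.50 to 0.12 for Cnp, above 0 under Leiden clusters and lowest for Cnp in thinned cells. Mbp made up 35.2% of the UMIs of the 9 genes in NC microglia-gated cells and 47.4% in CO, against 18.1% and 17.5% in oligodendrocyte-gated cells. Cnp made up 29.3% and 38.8%, against 15.2% and 15.1%. Relative to oligodendrocyte-gated cells, Mbp stood at 3.07% in NC and 3.08% in CO and Cnp at 3.05% and 2.93%, whereas Mag went from 1.14% to 0.205% and Opalin from 0.667% to 0.243%.

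The share of microglia-gated cells with a UMI showed the same division. It was 35.7% in NC and 34.6% in CO for Mbp and 35.9% and 37.6% for Cnp, but 7.02% and 1.66% for Mag and 2.16% and 0.972% for Opalin. With cells thinned to 1000 UMIs, which kept 7393 of 8373 NC and 8177 of 8953 CO cells, Mbp was found in 15.3% and 12.2%, Cnp in 14.1% and 11.3%, Mag in 3.10% and 0.416%, and Opalin in 0.852% and 0.220%. In endothelial-gated cells, which are not known to make myelin, Mbp was found in 16.5% and 13.96% of cells, or in 6.17% and 5.27% after thinning, at median depths of 4195 and 5194 UMIs.

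The shallowest cells of the class differed most between the groups. Microglia-gated cells of 500 to 2000 UMIs held on average 2.001 UMIs of the 7 other genes in NC (1.94 to 2.06), and cells of 2000 to 4000 UMIs held 0.471 (0.436 to 0.508), although they were deeper. In CO the averages were 0.306 and 0.194. In the cells of 500 to 2000 UMIs Mbp was at 0.823 UMIs per cell in NC and 0.482 in CO, and Cnp at 0.719 and 0.211. In this bin both were thus lower in CO, as the other 7 genes were. In NC all 3 quantities were lower in the cells of 2000 to 4000 UMIs, with Mbp at 0.703 and Cnp at 0.498. In CO cells of that depth Mbp was at 0.771, above NC, and Cnp at 0.458, below NC. In the cells of 4000 to 6000 UMIs both were above NC in CO, with Mbp at 0.741 in NC and 0.793 in CO and Cnp at 0.646 and 0.705. Above 2000 UMIs the counts per cell of all 3 increased with depth in both groups, but not in proportion to it. As CPM without TMM scaling, the deepest cells were below those of 2000 to 4000 UMIs. Mbp went from 219 to 135 in NC and from 246 to 128 in CO, and Cnp from 155 to 97.6 and from 146 to 112. The other 7 together went from 146 to 70.5 and from 61.8 to 30.2. In the cells of at least 10000 UMIs Mbp was at 1.68 in NC and 1.65 in CO, Cnp at 1.22 and 1.43, and the other 7 genes together at 0.882 and 0.388. In the cells of 6000 to 10000 UMIs, Mbp was at 1.09 UMIs per cell in NC and 1.12 in CO, Cnp at 0.926 and 0.996, and the other 7 genes together at 0.630 and 0.289. Over the whole microglia-gated class, oligodendrocyte markers outside the 9, summed without Aspa, had from 168 to 174 CPM without TMM scaling in the NC libraries and from 53.4 to 53.8 in CO. With Aspa included, the same sums were 690 to 698 and 1024 to 1032. Aspa, an acetylaspartate-degrading enzyme, went the other way, from 509 to 1002 CPM with TMM scaling. Choroid plexus markers (7 of 8 in the files) were lower in CO, as the 7 genes were. They were at 2342 to 2855 CPM without TMM scaling in the NC libraries and 692 to 787 in CO. The part of these markers and of depth in the ratios was not tested.

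**Figure D3:**
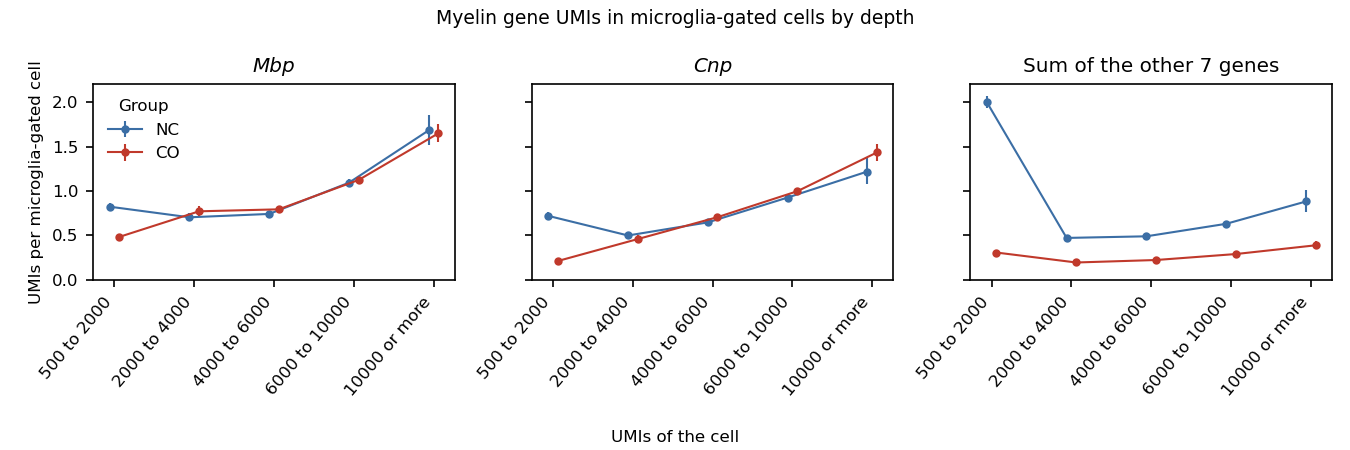
UMIs per microglia-gated cell of Mbp, of Cnp and of the other 7 genes summed, against the depth of the cell in UMIs, with exact Poisson intervals, for NC and CO. All 3 increase with depth above 2000 UMIs in both groups. There the NC and CO points of Mbp and Cnp lie close together, whereas the other 7 genes are lower in CO in every bin; in the shallowest cells Mbp and Cnp are lower in CO too.

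In endothelial-gated cells 8 of the 9 genes were at least 1.5-fold lower in CO, where 14.3% of 10849 genes tested were, with a median log2 ratio of -1.36. The exception was Mbp, at 92.7 CPM in NC and 75.02 CPM in CO (-0.31, -0.43 to -0.19), whose libraries overlapped. For the other 8 every CO library was below every NC library, which held for 24.3% of all genes. Cnp, which was almost level in microglia-gated cells, went from 53.8 to 27.5 CPM here (-0.96, -1.15 to -0.78). Opalin had the lowest ratio, -2.46 (-3.35 to -1.67), on 100 UMIs in NC and 15 in CO. In the same cells, as CPM without TMM scaling, choroid plexus markers were at 1062 to 1126 in the NC libraries and 398 to 615 in CO. Neutrophil markers were at 42.9 to 47.3 and 156 to 187. Oligodendrocyte markers outside the 9, summed without Aspa, were at 1041 to 1081 and 649 to 708. With Aspa included they were at 1056 to 1104 and 663 to 718. In NC libraries the sum without Aspa was 15107 to 15565 in oligodendrocyte-gated cells and 168 to 174 in microglia-gated cells. Whether endothelial cells express some of these marker genes themselves was not tested. The part of all these markers in the ratios was not tested either. In choroid plexus-gated cells 8 of the 9 were also at least 1.5-fold lower, beside 15.6% of 10510 genes, and Mbp, at -0.57, was the one that was not. The groups differed there in depth, with medians of 38793 UMIs in NC and 7996 in CO. Lower levels in CO did not hold for every class. In neuroblast-gated cells (408 in NC and 1119 in CO) the median log2 ratio of the 9 was 0.03, beside 0.005 over all genes. Single genes there went from -1.88 for Cldn11 to 1.87 for Opalin, which had 3 UMIs in NC and 35 in CO. In astrocyte-gated cells the median over the 8 genes with at least 30 UMIs was -0.63, with Mag (0.48), Mbp (0.44) and Cnp (0.38) above 0.

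**Figure D4:**
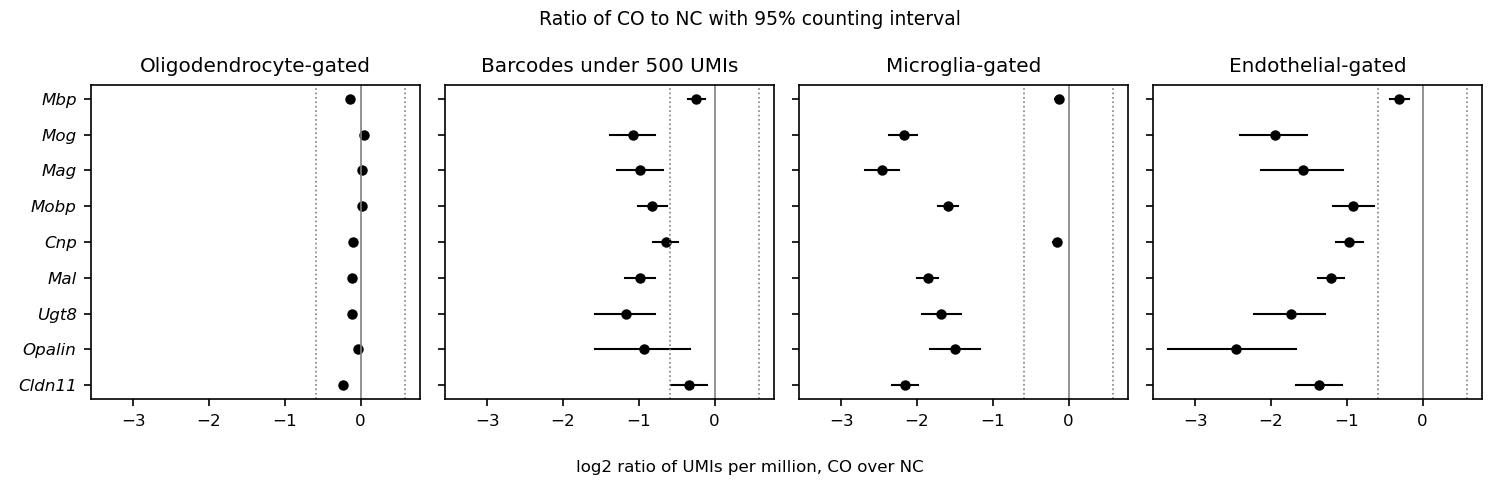
Log2 ratio of CPM, CO over NC, of each gene in 4 sets of barcodes, with exact counting intervals; the solid line marks no difference and the dotted lines 1.5-fold. All 9 genes sit between -0.24 and 0.04 in oligodendrocyte-gated cells, while Mbp is the gene nearest to 0 in each of the other 3 sets.

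Outside the oligodendrocyte lineage the leading gene of the 9 differed between classes. Cldn11 was at 790, 817 and 435 CPM in the NC libraries of fibroblast-gated cells and at 365, 599 and 536 CPM in CO, 19.3% and 16.3% of its level in oligodendrocyte-gated cells, and the libraries overlapped. These were 98 NC and 68 CO cells, led by the collagen gene Col1a1. Cldn11 made up 89.0% and 89.2% of the UMIs of the 9 genes there, while Opalin had no UMI in either group and Mobp had 4 in NC and none in CO. Cldn11 is also known from fibroblasts of the arachnoid barrier. A UMI of it was found in 52.0% of these NC cells and 64.7% of CO cells, at median depths of 12852 and 17769 UMIs, and in 27.6% and 23.1% after thinning, beside 9.51% and 2.77% of microglia-gated cells, or 3.65% and 0.734% after thinning.

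Among the gated classes outside oligodendrocytes, Mal was highest in monocyte or dendritic-gated cells, at 250, 263 and 348 CPM in the NC libraries and 194, 122 and 252 CPM in CO. That was 4.85% and 3.76% of the level in oligodendrocyte-gated cells, and the libraries overlapped. In ependymal-gated cells Mal was at 160 CPM in NC and 124 CPM in CO, 2.75% and 2.32%, and the libraries overlapped. Mobp, Mag, Mog and Ugt8 reached at most 0.56% of that level in either class and group. Mbp was at 224, 205 and 210 CPM in the NC libraries of T or NK-gated cells and at 233, 232 and 277 CPM in CO. Mbp had the highest percentage of its oligodendrocyte level among the 9 in both groups in barcodes under 500 UMIs and in most gated classes outside the lineage, the exceptions being B, astrocyte, ependymal, fibroblast and monocyte or dendritic-gated cells. The upstream golli start cannot be told from the myelin start in these counts, so which transcript the Mbp UMIs of these cells came from is unknown.

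**Figure D5:**
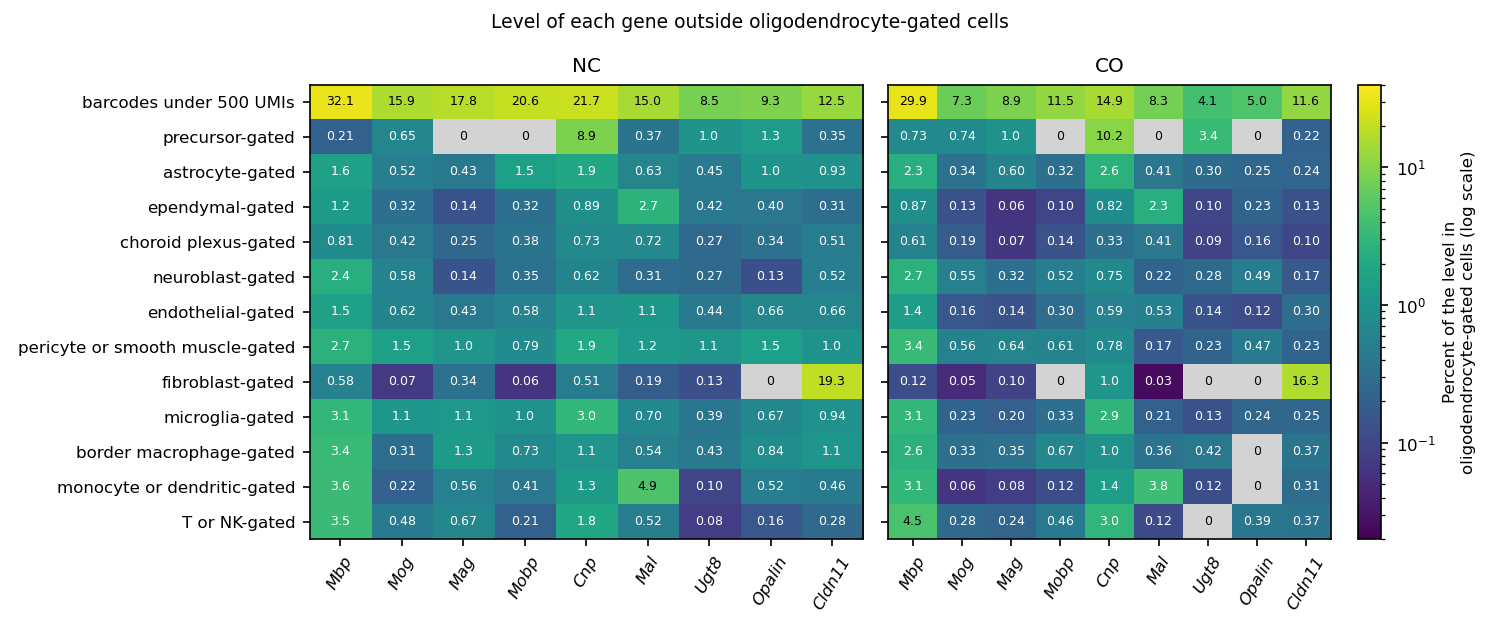
Level of each gene in 13 sets of barcodes as a percentage of its level in oligodendrocyte-gated cells of the same group (log colour scale; grey marks no UMI), NC left and CO right. Barcodes under 500 UMIs show all 9 genes with Mbp highest, whereas Cldn11 stands out in fibroblast-gated cells and Cnp in cells of the precursor gate.

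Barcodes under 500 UMIs, which can hold free RNA, fragments or small cells that these counts cannot tell apart, carried all 9 genes. There were 2302 in NC with 854577 UMIs and 1838 in CO with 689514 UMIs. The deposited data held from 6331 to 7953 barcodes per library, and any droplets outside that set could not be examined. At least 1 UMI of the 9 genes was found in 61.3% of the barcodes under 500 UMIs in NC and 44.2% in CO. Barcodes with 10 or more such UMIs were 5.21% and 3.26% of the set and held 35.6% and 35.9% of its UMIs of the 9 genes, so that a few barcodes held much of the signal in both groups.

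Mbp stood apart from the others in these barcodes as well. It was at 1915, 1868 and 1990 CPM in the NC libraries and at 1421, 2042 and 1422 CPM in CO, 32.1% and 29.9% of its level in oligodendrocyte-gated cells. The groups overlapped because of CO replicate 02. The other 8 genes stood at 8.47% to 21.7% of their level in oligodendrocyte-gated cells in NC and at 4.07% to 14.9% in CO, with Ugt8 the lowest and Cnp the highest of the 8 in both groups. Mbp made up 30.5% of the UMIs of the 9 genes in these barcodes in NC and 39.2% in CO, against 18.1% and 17.5% in oligodendrocyte-gated cells.

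In these barcodes 7 of the 9 genes were at least 1.5-fold lower in CO, where 23.2% of the 6672 genes tested were, and the same 7 had every CO library below every NC library, beside 15.3% of all genes. The median log2 ratio was -0.93, beside -0.01 over all genes. With the limit set at 400 UMIs in place of 500 the median was -0.53 and 4 of 9 were at least 1.5-fold lower. Ugt8 was at 229, 302 and 226 CPM in NC and 112, 94.4 and 126 CPM in CO, a log2 ratio of -1.17 (-1.57 to -0.79). Mog was at 306, 436 and 509 CPM in NC and 216, 139 and 239 CPM in CO, a log2 ratio of -1.08 (-1.38 to -0.79). For both genes the libraries of the groups were apart.

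Mag (-0.98), Mal (-0.98), Opalin (-0.93), Mobp (-0.82) and Cnp (-0.64) were lower as well. Cldn11, at 452 CPM in NC and 357 CPM in CO (-0.34, -0.58 to -0.10), and Mbp (-0.24, -0.35 to -0.13) were within 1.5-fold, and their libraries overlapped. Markers of other cells moved in the same barcodes. The choroid plexus list summed to between 33380 and 36437 CPM without TMM scaling in the NC libraries and between 17016 and 19700 in CO, and the astrocyte list to between 2482 and 2824 in NC and between 4350 and 5163 in CO. Their part in the ratios was not tested.

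Other myelin and oligodendrocyte genes were counted in the same 3 sets of barcodes. Of a list of 53, 52 were in the files. Among the 52 were all 18 markers of the oligodendrocyte gate, including Nkx6-2, Gjb1 and Aspa. These markers helped decide which cells entered the oligodendrocyte class and which were set aside from the others. The ratios of these 18 genes in gated cells are therefore not independent of the gate. In microglia-gated cells 49 of the 52 passed 30 UMIs. Of these 49, 35 were at least 1.5-fold lower in CO and 1 was at least 1.5-fold higher, beside 11.7% and 7.81% of all genes tested. The lowest ratios among the genes that passed were those of Nkx6-2, a transcription factor of oligodendrocytes (9.44 to 0.994 CPM, -3.25), Gjb1, the gap-junction protein connexin 32 (-2.72), and Ptgds, prostaglandin D synthase (-2.70). The highest were Aspa (0.98), the tetraspanin Cd81 (0.42) and the transferrin gene Tf (0.37). In oligodendrocyte-gated cells none of the 52 was at least 1.5-fold lower, beside 7.73% of all genes tested. At least 1.5-fold higher were 3 of the 52, beside 9.45% of all genes. They were the gate marker Aspa (1.26), Olig2, a transcription factor of the lineage (0.92), and the kinase gene Sgk1 (0.81). In barcodes under 500 UMIs 45 of the 52 passed 30 UMIs. Of these 45, 23 were at least 1.5-fold lower and 6 higher, beside 23.2% and 19.7% of all genes tested.

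Among the 8 genes whose pattern was most like the mean of the 9 over 19 sets of barcodes (the classes, cells set aside or ungated, and barcodes under 500 UMIs) in 2 groups, 38 points in all, were Insc (Pearson r 0.93), Gjb1 (0.93), Clca1 (0.93), Klk6 (0.92), Tmem88b (0.92), Hapln2 (0.92) and Nkx6-2 (0.91). The points share libraries and differ in depth, and 5 of these 8 genes had served to gate the oligodendrocytes. Among the 9 themselves the correlation with that mean went from 0.79 for Cldn11, 0.83 for Cnp and 0.84 for Mal to 0.94 for Opalin.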

How the data were processed

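Per the file headers and the labels, the authors deposited raw UMI counts per gene and barcode for 6 libraries of 10x Genomics single-cell RNA sequencing, with gene symbols and barcodes in companion files. Per the submitters' processing notes, reads were mapped to Rnor_6.0 with Cell Ranger (release not given in the sources used here). Counting by Cell Ranger joins all transcripts of a gene.

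Barcodes of at least 500 UMIs were taken as cells and classed by marker scores (mean log of UMIs per 10000 over the markers, divided by the mean of the 50 highest cells of at least 1000 UMIs). A class needed a score of 0.3 and 3 markers. Precursors had also to miss the oligodendrocyte gate. Cells meeting gates of 2 lineages were set aside as possible doublets and no doublet caller was run. The score limits were chosen after seeing the marker counts, and the members and gene lists with earlier results of these data known. Named genes were all 9 members, the 3 highest and 3 lowest ratios of the other myelin list in microglia-gated cells, and the 8 genes with at least 100 UMIs most like the mean pattern on log2(CPM + 1). A gene that this rule names is not reported here. Genes named as the few that passed 1.5-fold in another class, pairs named for their correlation over single cells, and the Klk6 split were chosen after their values were seen. The marker sum without Aspa was not planned.

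UMIs were summed per class and group and scaled with TMM factors (edgeR 4.0.16, R 4.3.3), over genes with at least 30 UMIs in both groups together. Ratios carry exact binomial intervals and levels exact Poisson intervals (scipy 1.17.1). Only the ratio intervals were run on simulated data, drawn as independent Poisson counts. That run cannot show their coverage where a few barcodes hold much of the signal. Thinning drew 1000 UMIs per cell. The library check covered genes in at least 300 barcodes of a group. Alternatives were total-count scaling, a minimum of 1000 UMIs, a limit of 400 UMIs for low barcodes, Leiden clusters made without the 9 genes (scanpy 1.11.5, leidenalg 0.10.2), cells of 2 lineages kept, thinned cells, no minimum count, each library left out, and, chosen after seeing the data, a score limit of 0.4.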

Additional observations from a re-analysis of the deposited data

How the results depend on the processing

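Leaving out 1 library at a time put the median log2 ratio at -0.10 to -0.034 in oligodendrocyte-gated cells, at -1.75 to -1.61 in microglia-gated cells and at -1.12 to -0.84 in barcodes under 500 UMIs. It put the CO over NC ratio of the oligodendrocyte-gated share of cells at 0.458 to 0.481, around 0.468, and the share of the 9 genes' UMIs in that class at 85.4% to 86.5% in NC and 84.97% to 87.1% in CO. With cells thinned to 1000 UMIs the median was -0.076 in oligodendrocyte-gated cells and -2.14 in microglia-gated cells, where it was -1.76 with total counts, -1.44 in cells of at least 1000 UMIs, -0.95 with Leiden clusters and -1.38 with cells of 2 lineages kept. In barcodes under 400 UMIs it was -0.53. Keeping cells of 2 lineages put 94.5% of the UMIs in NC and 92.1% in CO in oligodendrocyte-gated cells, and a score limit of 0.4, chosen after seeing the data, put 89.0% and 88.6% there. The cause was not tested. These medians kept their sign under every alternative run. Single genes near 0 did not: Opalin, Mag and Mobp in oligodendrocyte-gated cells and Mbp and Cnp in microglia-gated cells changed sign under some. In microglia-gated cells 7 of 9 genes were at least 1.5-fold lower under all 13 alternatives, and in oligodendrocyte-gated cells none was under any of 13. In barcodes under 500 UMIs 6 were without CO replicate 01 and 4 under the limit of 400. No paired analysis was possible because no result came from a test and each group counted as 1 sample. Low barcodes held few UMIs per gene, as few as 32 for Opalin in CO, and the precursor gate too few cells to order the genes beyond Cnp.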
